A study of Mus musculus with 192 samples.

Results

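The genes described here were 38 genes of the G2 and M phases of the cell cycle, taken by name from a molecule count table of 24264 genes. All 38 were found, and each had a molecule in at least 1 of 96 wells. They cover the cyclins and the kinase that drive entry to mitosis, the Aurora kinases, the spindle checkpoint and the anaphase-promoting complex, centromere and chromatin proteins, spindle motors and the proteins of cytokinesis. The rule names genes by function and uses no value from these wells. The members were, however, chosen with earlier results of these data known.

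The study measured RNA molecules in single R1 cells, an established mouse embryonic stem cell line, grown on a feeder layer of irradiated mouse embryonic fibroblasts. Cells were freed of feeders by settling and of dying cells with annexin V beads, frozen, thawed and captured in 96 chambers of 1 microfluidic chip, where synthetic spike-in RNAs were added at lysis. The chip held 1 culture with no treatment and no control group, so it counts as 1 sample, and no p-value was computed from wells. Wells fall into 2 classes by their total of gene molecules. In the 45 low-RNA wells this total was 8774 to 35543 with a median of 22234, and in the 51 RNA-rich wells it was 51390 to 573648 with a median of 98750. These classes come from the data and not from the study's labels. Images of the chambers were not used here, so how many cells each well held was not checked.

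Levels are given as molecules per 10000 gene molecules of the same well. They were not divided by transcript length, so a gene is compared with itself between wells and not with another gene. Spike-in totals had a median of 6098 molecules in low-RNA wells and 7992 in RNA-rich wells, while mitochondrial genes and Rn45s together held a median of 34.7% and 13.0% of gene molecules in low-RNA and RNA-rich wells. Wells C03 and H03 had spike-in totals far above the others, and the low-RNA well H12 had only 926 spike-in molecules. Embryonic stem cell markers were present in every well, with a summed level of 38.9 to 143 in low-RNA wells and 18.8 to 227 in RNA-rich wells. Dppa5a alone averaged 38.9 of a mean sum of 57.2 in low-RNA wells, and 70.3 of 95.2 in RNA-rich wells. Of the markers of other cell types, 7 of 9 for trophectoderm, 14 of 15 for feeder fibroblasts and 6 of 7 for primitive endoderm were found. Their sums reached 15.4, 22.8 and 2.34 in low-RNA wells and 73.3, 185 and 2.81 in RNA-rich wells. Elf5 and Hand1 (trophectoderm), Postn (feeder fibroblast) and Sox17 (primitive endoderm) had no molecule in any well.

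Cells enter mitosis when cyclin B and the kinase Cdk1 form an active complex, and they leave it when the anaphase-promoting complex marks cyclin B and securin for degradation. The mRNAs of this machinery are made in waves: most of them are scarce in early G1 and most abundant in G2 and mitosis. In many of these genes the wave depends on a promoter element called the cell cycle genes homology region, or CHR, usually placed downstream of CCAAT boxes that the factor NF-Y binds. Mouse embryonic stem cells have a short G1 phase, so that a growing culture holds a large share of cells in S, G2 and M.

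Promoters of 5 genes that varied strongly between RNA-rich wells are shown as examples, chosen because they hold this arrangement shortly before the start. Each run spans 91 bases, from 100 to 10 bases before the RefSeq start on GRCm38.p6, and is written 5′ to 3′ on the strand of the gene. Capitals mark the CHR letters TTTGAA or their reverse complement TTCAAA, and the CCAAT box letters CCAAT or their reverse complement ATTGG.
Ube2c, chr2:164769829-164769919, plus strand: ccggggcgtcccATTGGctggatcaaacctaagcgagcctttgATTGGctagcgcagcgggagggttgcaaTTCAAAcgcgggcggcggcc
Cdk1, chr10:69352922-69353012, minus strand: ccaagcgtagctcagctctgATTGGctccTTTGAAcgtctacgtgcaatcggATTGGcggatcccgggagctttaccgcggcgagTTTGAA
Cdc20, chr4:118437353-118437443, minus strand: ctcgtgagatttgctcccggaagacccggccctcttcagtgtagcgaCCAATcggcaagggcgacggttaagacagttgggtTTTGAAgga
Top2a, chr11:99024199-99024289, minus strand: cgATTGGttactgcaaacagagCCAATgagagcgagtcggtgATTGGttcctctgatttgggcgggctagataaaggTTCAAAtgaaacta
Hmgb2, chr8:57511743-57511833, plus strand: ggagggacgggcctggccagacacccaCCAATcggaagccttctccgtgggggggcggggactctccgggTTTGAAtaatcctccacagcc
In these 5 promoters a CHR match began 15 to 30 bases before the start, with a CCAAT box match upstream of it. Of the 11 members above technical noise in RNA-rich wells, described further on, no other had this placement at its RefSeq start. Aurka, Kif23, Cenpf and Hmmr held CHR letters only after that start, Ccnb1 held CCAAT letters alone and Nusap1 neither. Starts differ between annotations, and the placement described here rests on the RefSeq starts. By the GENCODE M21 positions given further on, Kif23 would have it, while of the 5 printed promoters only that of Top2a would keep it. From the first base of the nearest upstream CCAAT match to the first base of the CHR match the distance was 28 bases in Ube2c, 33 in Cdk1, 35 in Cdc20, 35 in Top2a and 43 in Hmgb2.

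RefSeq promoter windows, from 250 bases before to 50 after the start, were at hand for 33 of the 38 members. CHR letters stood in the window of 25 of these (75.8%), against 20.2% of 27025 genes with a window. CCAAT letters stood in 27 (81.8%), against 41.1% of those genes. Both stood in 1 window in 22 members (66.7%), against 7.97% of genes. The placement of the printed promoters was found in 8 members (24.2%), against 0.392% of genes. Its limits were taken from the 5 printed promoters, which are among the 8, so these shares cannot be compared fairly. Both strands were searched, and neither motif lies within the other. The windows of Birc5, Mad2l1 and Nusap1 held neither, which says only that these letters are not there, and a match is not a measured binding site.

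Taken as 1 sum per well, the 38 genes varied less in low-RNA wells, and they were a smaller share of gene molecules there unless mitochondrial genes and Rn45s were left out of the total. The summed level was 57.8 ± 9.38 molecules per 10000 in low-RNA wells and 72.3 ± 18.8 in RNA-rich wells (SD over 45 and 51 wells), a ratio of 0.799, or 1.07 with mitochondrial genes and Rn45s left out. Single wells ranged from 41.6 through a median of 56.6 to 99.8 in low-RNA wells, and from 25.5 through a median of 67.8 to 128 in RNA-rich wells, so every low-RNA well lay within the range of the RNA-rich wells, and all but H12 were at 71.1 or less. As counts, the sum was 59 to 228 molecules per low-RNA well with a median of 130, and 141 to 4117 per RNA-rich well with a median of 699. The coefficient of variation (CV) of the summed level was 16.2% in low-RNA wells, or 12.2% without H12, against 26.01% in RNA-rich wells, or 23.2% without D02 and E02.

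**Figure D1:**
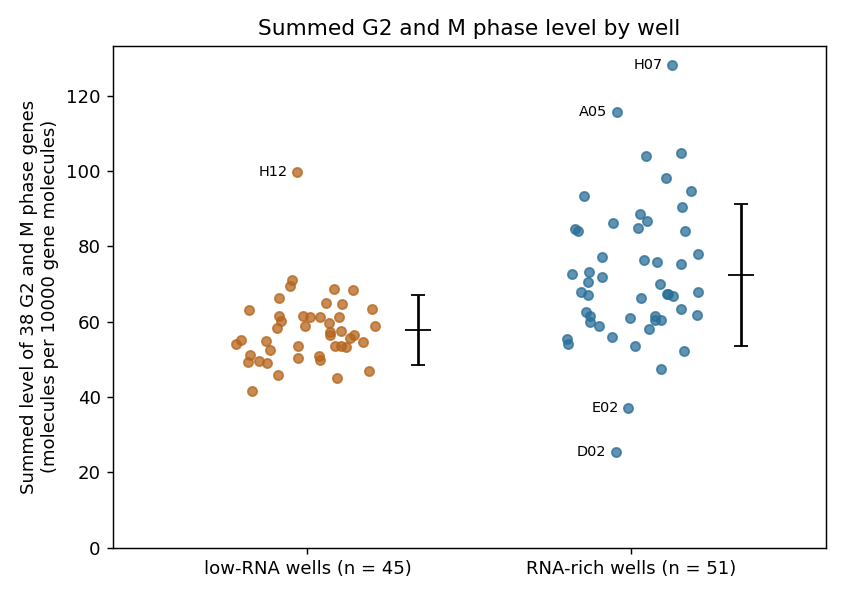
Summed level of the 38 G2 and M phase genes, in molecules per 10000 gene molecules, in 45 low-RNA wells (left) and 51 RNA-rich wells (right); each point is 1 well, and the bar beside each class is the mean with 1 SD. Low-RNA wells lie close together from 41.6 to 71.1 with H12 alone at 99.8, while RNA-rich wells spread from D02 at 25.5 to H07 at 128.

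Low-RNA wells hold fewer molecules, and counting alone widens the spread of small counts, so the classes were also compared at the same depth. All wells with at least 20000 gene molecules were thinned to 20000, which left 29 low-RNA and 51 RNA-rich wells. At this depth the low-RNA wells held 90 to 132 molecules of the 38 genes, with a mean of 113 ± 11.6, and the RNA-rich wells 47 to 261, with a mean of 146 ± 41.2. The variance over the mean, which is 1 for pure counting error, was 1.18 in low-RNA wells and 11.7 in RNA-rich wells. It was 9.92 in RNA-rich wells without D02, E02 and H08. The 16 low-RNA wells under this depth, which are not in these values, include H12 and the wells at both ends of the range of summed levels. Thinning to 15000 kept 39 low-RNA wells, H12 among them, and the variance over the mean was then 3.09 in low-RNA wells, or 1.84 without H12, against 6.63 in RNA-rich wells, or 5.56 without D02, E02 and H08. With all 96 wells thinned to the lowest total, 8774, it was 1.46 in low-RNA wells, or 1.26 without H12, against 4.91 in RNA-rich wells, or 4.06 without those 3. The summed count thus spread less in low-RNA wells at each of these depths, by an amount that depended on the depth and on H12.

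A smaller spread in low-RNA wells was also seen for other lists. At 20000 gene molecules the summed count of 35 G1 and S phase genes had a variance over the mean of 1.4 in low-RNA wells and 5.37 in RNA-rich wells. For 74 other G2 and M phase genes the values were 1.92 and 5.07, and for 13 embryonic stem cell markers 3.52 and 56.4, in low-RNA and RNA-rich wells. Each of these sums varied less in the 29 low-RNA wells of this depth.

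The wells at the ends of the RNA-rich range were high or low across many genes at once. D02 had the lowest sum of its class, with 35 of 36 genes below their RNA-rich median and 24 of them under 0.5 times that median (the median was 0 for the other 2 genes). E02 had the second lowest, with 31 genes below and 20 under 0.5 times. These wells also held the highest summed levels of 15 feeder fibroblast markers in the class, 185 in D02 and 160 in E02 against a class median of 9.28 and a range of 7.09 to 22.8 in low-RNA wells, with 14 of the 15 markers found. Embryonic stem cell markers summed to 23.1 in D02 and 29.2 in E02, against a median of 92.3. Cdkn1a, an inhibitor of cyclin-dependent kinases, stood at 5.6 in D02 and 24.8 in E02, the highest 2 values of the class, whose median was 0.553. The part of feeder cells in these low values was not tested.

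At the upper end, H07 had the highest sum, 128, with 25 genes above their median and 19 over 2 times it. Its levels were 13 for Cdk1, 11.5 for Ube2c and 11.3 for Top2a, each the highest of all wells. H07 was also 1 of 9 RNA-rich wells with a summed Krt8 and Krt18 level of at least 20, at 72.2, while its stem cell markers summed to 23.2 and its feeder markers to 65.98, above the class median as in D02 and E02. Of 9 trophectoderm markers 7 were found, with sums of 0.612 to 15.4 in low-RNA wells and 1.95 to 73.3, in H07, in RNA-rich wells. The 9 wells overlapped the others: their G2 and M phase sum was 72.3 ± 22.8, and that of the 42 other RNA-rich wells 72.3 ± 18.2. A05, with the second highest sum of 116, had 27 genes above their median and the highest Hmgb2 level of all wells, 20.7. Its stem cell markers summed to 162 and its keratins to 1.76, so wells with a high G2 and M phase sum occurred both with and without high keratin.

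In the low-RNA class H12 alone was set apart, at 99.8 where the next well had 71.1. It held 163 molecules of the 38 genes in 16330 gene molecules. Ube2c stood at 8.57, Ccnb1 and Birc5 at 5.51, and Ccnb2 at 4.29 in this well, each the highest level of its class. Its mitochondrial and Rn45s share was 8.87%, the lowest of the class, and its stem cell markers summed to 143, the highest. What sets H12 apart was not tested.

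A gene was compared between the classes where its mean level over all 96 wells was at least 0.2, which held for 35 members and not for Cdc25b, Cdc25c and Aurkb. None was at least 2 times lower in low-RNA wells, where 9.41% of 5154 genes were, and none at least 2 times higher, where 4.4% were. Their median ratio was 0.794, against 0.769 over all genes tested, and 8 of them (22.9%) had a ratio above 1, against 27.3% of all genes. The share of the 38 genes in a well's RNA thus differed between classes about as the share of a typical gene did. The direction depends on what the share is taken of. With mitochondrial genes and Rn45s left out of the total, the median ratio was 1.06 for members and 1.03 for all genes. Per spike-in molecule it was 0.273 for members and 0.25 for all genes, and 33 members, like 90.8% of genes, were then at least 2 times lower in low-RNA wells. A ratio of 1 is therefore no fixed reference, and the groups of genes are set against the median gene, at 0.769 on the main scale. Under the 3 scalings 31 of 35 members stayed on 1 side of it, and Bub3, Ccnf, Plk1 and Ube2c did not. Each scaling multiplies all genes of a well by the same factor, so sides can change only through the weight of wells. Staying on 1 side is therefore a weak check.

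Gene positions are those of GENCODE M21 on GRCm38, with the strand. The cyclins, Cdk1 and their regulators formed the group with the lowest median ratio of low-RNA to RNA-rich wells under all 3 scalings. The median ratio of means over the 8 genes compared was 0.614, and 7 of the 8 lay below the median gene, Cks2 being the exception, or 5 of 8 per spike-in total. Ccnb1 (chr13:100778650-100786570, minus strand) encodes cyclin B1, the main mitotic partner of Cdk1. Its level ranged from 0 through a median of 2.74 to 5.51 in low-RNA wells, and from 0.723 through 4.2 to 9.56 in RNA-rich wells, a ratio of means of 0.595 with wide overlap. Only 13.1% of its molecules came from uniquely matched reads, so its counts may include near-identical copies and are uncertain.

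Cdk1 itself (chr10:69335146-69352938, minus strand) ranged from 0 through a median of 1.82 to 4.29 in low-RNA wells and from 0.694 through 3.1 to 13 in RNA-rich wells, a ratio of 0.533. The highest RNA-rich well was H07, and the next, D08, had 8.77. Ccnb2 (chr9:70407692-70421547, minus strand), the second B-type cyclin, had the lowest ratio of all tested members, 0.51, from means of 0.66 ± 0.716 and 1.29 ± 0.697 in low-RNA and RNA-rich wells. Its sum was 66 molecules (95% Poisson interval 51 to 84) in low-RNA wells and 756 (703 to 812) in RNA-rich wells. The ratio fell below 0.5 when a few wells were left out, to 0.446 without H12 and to 0.493 without D02 and E02. Intervals of this kind cover counting error only and not the differences between cells.

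Cks1b (chr3:89415472-89418383, minus strand) and Cks2 (chr13:51645232-51650660, plus strand) encode small proteins that bind Cdk1 and help it find its substrates. They differed in their behaviour between the classes. Cks1b ranged from 0.478 through a median of 3.04 to 9.12 in low-RNA wells and from 1.65 through 5.3 to 10.3 in RNA-rich wells, a ratio of 0.577. Cks2 ranged from 1.69 through 4.64 to 8.08 in low-RNA wells and from 1.45 through 5.04 to 9.08 in RNA-rich wells, a ratio of 0.972. Both were found in every well of both classes.

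The other members of this group were sparse. Ccna2 (cyclin A2) averaged 0.582 ± 0.523 in low-RNA wells and 0.919 ± 0.616 in RNA-rich wells, and Ccnf (cyclin F, which targets proteins for degradation) 0.505 ± 0.615 and 0.686 ± 0.49. Plk1, the polo-like kinase that helps switch on Cdk1, averaged 0.55 ± 0.591 in low-RNA wells and 0.783 ± 0.495 in RNA-rich wells. The phosphatases Cdc25b and Cdc25c, which activate Cdk1, were near the limit of detection: Cdc25b had 1 molecule in all low-RNA wells and 20 in all RNA-rich wells, and Cdc25c had 9 and 80. Cdc25b was seen in 2.22% of low-RNA wells (exact binomial 95% interval 0.0562 to 11.8%) and 17.6% of RNA-rich wells (8.4 to 30.9%). No ratio of levels is given for these, as their means fall under the minimum.

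Among the Aurora kinases and their partners, Aurka (chr2:172356190-172370535, minus strand) was below the median gene under all 3 scalings, while Birc5 and Tpx2 were slightly above it. Aurka, a kinase that matures the spindle poles, ranged from 0 through a median of 0.772 to 3.78 in low-RNA wells and from 0.181 through 1.63 to 4.94 in RNA-rich wells, a ratio of 0.547. Birc5 (survivin, a subunit of the chromosomal passenger complex) averaged 1.95 ± 1.08 in low-RNA wells and 2.44 ± 0.927 in RNA-rich wells, a ratio of 0.801. Tpx2, which activates Aurora A on the spindle, had a ratio of 0.798. Aurkb, the kinase of the passenger complex, had 7 molecules in all low-RNA wells (Poisson interval 2.81 to 14.4) and 139 in all RNA-rich wells (117 to 164), and was too sparse for a ratio.

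Of the 7 genes of the spindle checkpoint and the anaphase-promoting complex, 5 had a ratio below the median gene, or 3 per spike-in total, and Bub1b and Ttk were above it. Cdc20 (chr4:118432901-118437352, minus strand), the activator of the complex, ranged from 0 through a median of 1.14 to 3.72 in low-RNA wells and from 0.301 through 1.67 to 6.06 in RNA-rich wells, a ratio of 0.517. Ube2c (chr2:164769898-164778822, plus strand), the ubiquitin-conjugating enzyme of the complex, ranged from 1.01 through 2.74 to 8.57 in low-RNA wells and from 1.03 through 3.52 to 11.5 in RNA-rich wells, a ratio of 0.728, and was found in every well. Bub1, Bub1b, Bub3 and Mad2l1, which hold back anaphase until chromosomes are attached, had ratios of 0.712, 0.832, 0.696 and 0.594. Ttk (chr9:83834689-83872389, plus strand), the kinase at the top of the checkpoint, averaged 0.688 ± 0.729 in low-RNA wells and 0.422 ± 0.342 in RNA-rich wells, from 64 and 243 molecules, and its ratio of 1.63 was the highest of all members.

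All 3 chromatin genes and 2 of 3 centromere genes had a ratio above the median gene under all 3 scalings. Top2a (chr11:98992943-99024189, minus strand), the topoisomerase that untangles sister chromatids, ranged from 0 through a median of 5.04 to 9.92 in low-RNA wells and from 0.769 through 4.75 to 11.3 in RNA-rich wells, a ratio of 1.11. Hmgb2 (chr8:57511907-57515999, plus strand), a chromatin architecture protein that gave 17.1% of the summed level in RNA-rich wells, ranged from 5.79 through 10.3 to 16 in low-RNA wells and from 5.25 through 12.3 to 20.7 in RNA-rich wells, a ratio of 0.829. Only 42.8% of Hmgb2 molecules were from uniquely matched reads, so its level is uncertain. Mki67, which coats mitotic chromosomes and is a common marker of proliferation, had a ratio of 0.908.

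The kinetochore protein Cenpf (chr1:189640606-189688086, minus strand) ranged from 0 through a median of 1.83 to 5.88 in low-RNA wells and from 0.11 through 1.56 to 4.82 in RNA-rich wells, a ratio of 1.15. Cenpe, a kinetochore motor, had a ratio of 1.42, and Cenpa, the histone H3 variant of centromeres, one of 0.652. Cenpa alone of these 3 was below the median gene.

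All 8 motor and spindle genes had a ratio above the median gene under all 3 scalings. Hmmr (chr11:40701395-40733422, minus strand), which organises spindle microtubules, ranged from 0 through a median of 2.02 to 6.94 in low-RNA wells and from 0.301 through 1.65 to 5.05 in RNA-rich wells, a ratio of 1.09. Nusap1 (chr2:119618298-119651244, plus strand), which bundles spindle microtubules, ranged from 0 through 0.934 to 4.52 in low-RNA wells and from 0 through 1.11 to 4.45 in RNA-rich wells, a ratio of 0.864. Kif23 (chr9:61915905-61946774, minus strand), a motor of the central spindle, ranged from 0 through 0.586 to 2.26 in low-RNA wells and from 0 through 0.634 to 4.73 in RNA-rich wells, a ratio of 0.794, with the highest level in H08.

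Among the other motors, Kif20b, Kif2c and Kif11 had ratios of 1.3, 1.11 and 1.06, and Kif20a one of 0.774. Prc1, which crosslinks antiparallel microtubules in the central spindle, had a ratio of 0.794. The cytokinesis genes Racgap1, Ect2 and Anln, which position and build the contractile ring, had ratios of 0.591, 0.931 and 0.9, from mean levels under 1 in both classes, so that Racgap1 alone of the 3 was below the median gene.

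The ratios of the members ran with transcript length. The 11 members of up to 2500 bases had a median ratio of 0.595, and none was above 1. The 12 members between 2500 and 4000 bases had a median of 0.797, and the 12 of over 4000 bases one of 0.994, with 6 above 1. Cyclin B2, Cdc20 and Aurka are in the first set, and Cenpe, Cenpf, Kif20b and Top2a in the last. Cks2, of 794 bases, was the shortest member and yet had a ratio of 0.972. All genes showed the same order, with medians of 0.656, 0.81 and 1.05 in these length ranges, and the rank correlation of ratio and length was 0.667 over 35 members and 0.511 over 5154 genes. The differences between the groups of members by role, given above, were not separated from this order of length. These points share the same wells, and the cause was not tested.

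**Figure D2:**
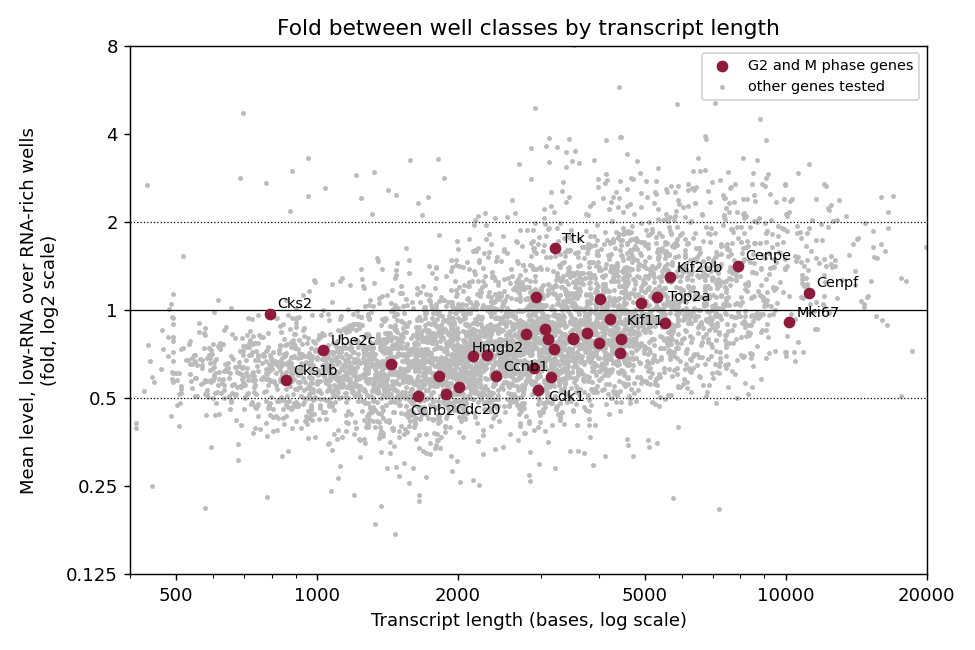
Ratio of mean level, low-RNA over RNA-rich wells (vertical, log2 scale), against transcript length in bases (horizontal, log scale) for 35 G2 and M phase genes (red) and all other genes tested (grey); dotted lines mark a ratio of 2 and of 0.5. Short members such as Cks1b and Ccnb2 lie below 1 and long ones such as Cenpe and Cenpf above it, within the band of all genes.

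Variation between wells was then set against the spike-ins. The squared CV of each gene, after division by the gene total of the well, was divided by the squared CV that spike-ins of the same mean had in the same wells. A gene is called above technical noise here if it averaged at least 1 molecule per well and its noise ratio reached 2 both over all wells and with its highest well left out. In RNA-rich wells 11 of 37 members tested (29.7%) met this, against 7.0% of 7768 genes. Among genes averaging at least 5 molecules per well the same 11 were called of 33 members, against 14.5% of 3151 genes. They were Ube2c, Cdk1, Top2a, Kif23, Ccnb1, Hmgb2, Cdc20, Nusap1, Aurka, Hmmr and Cenpf. The noise ratio was highest for Ube2c, at 4.25, and 3.62 without its highest well. It was 3.95 for Cdk1, which fell to 2.49 without H07, and 3.55 for Top2a. Cenpf was closest to the limit, at 2.23 with all wells and 2.03 without its highest.

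The genes above technical noise came from 6 of the 7 roles and not from 1 pathway step. The 3 cytokinesis genes were below the limit, Ect2 with 2.03 with all wells and 1.81 without the highest. Cks2, Plk1 and Mad2l1 had ratios of 1.44, 1.08 and 0.946. The median over the 37 members was 1.54, against 1.36 over all genes, a smaller gap than that in the share above the limit. Without the 9 keratin-high wells 10 of 37 members remained above technical noise, against 5.71% of genes, and the one lost was Cdk1. Without D02, E02, A05 and H07, the wells with the 2 lowest and 2 highest sums, 7 of 37 remained, against 5.51% of genes: Ccnb1, Cdc20, Top2a, Kif23, Ube2c, Hmgb2 and Hmmr.

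**Figure D3:**
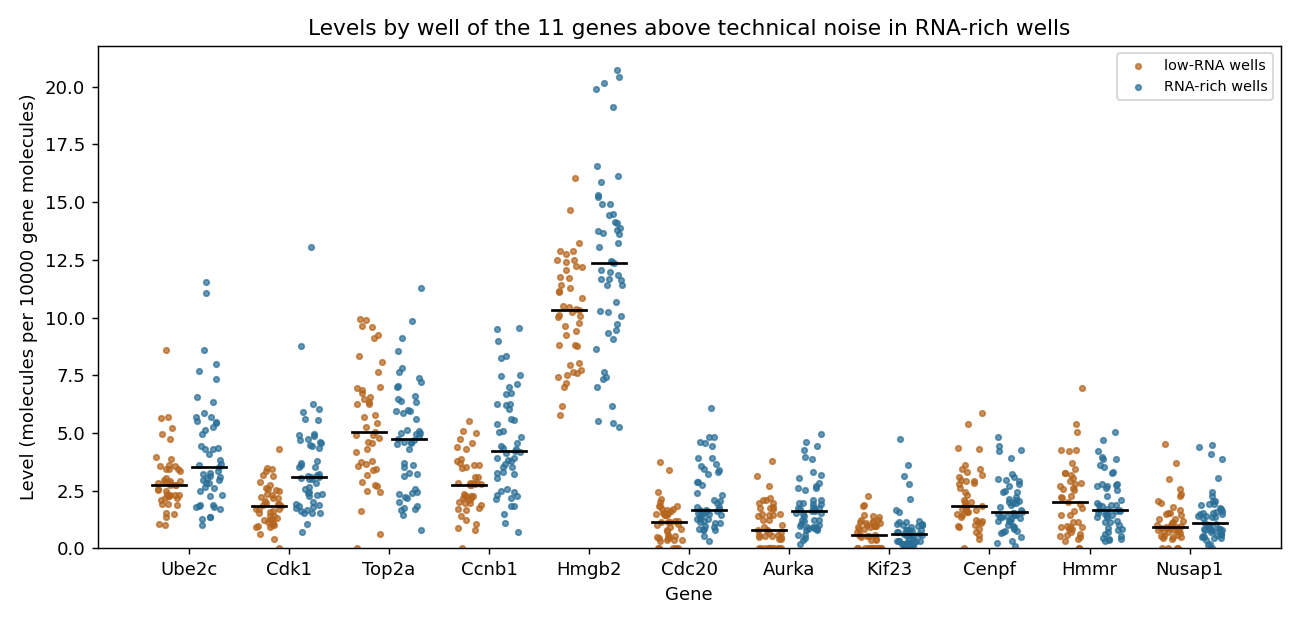
Levels of the 11 genes above technical noise in RNA-rich wells, in molecules per 10000 gene molecules, with low-RNA wells (brown) left of RNA-rich wells (blue) for each gene; points are wells and lines are medians. The classes overlap for all 11 genes, and the upper tails of Ube2c, Cdk1, Ccnb1 and Hmgb2 reach further in RNA-rich wells.

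In low-RNA wells none of 33 members tested was above technical noise, where 0.594% of 2695 genes were. Their noise ratios were between 0.289 for Tpx2 and 1.29 for Kif11, with a median of 0.45 against 0.473 over all genes. Counts are small in these wells, and the rule has little reach there. With both classes thinned to 20000 gene molecules, no member was above technical noise in RNA-rich wells either, where 1.5% of genes were. The spike-ins were not thinned, which by itself lowers the noise ratio of thinned genes, so this count cannot compare the classes. At that depth the median variance over the mean was 1.14 for members in low-RNA wells and 1.88 in RNA-rich wells, and 1.3 and 1.76 for all genes.

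**Figure D4:**
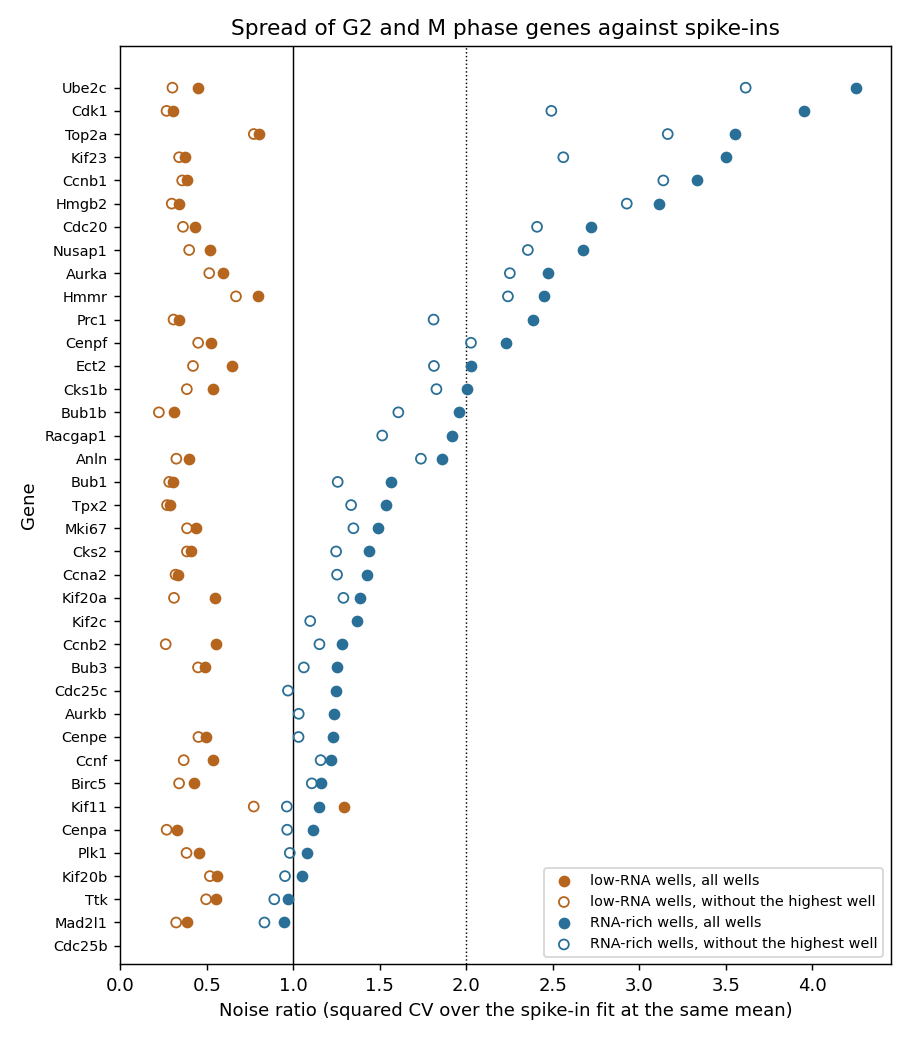
Noise ratio (squared CV over that of spike-ins at the same mean) of each G2 and M phase gene in low-RNA wells (brown) and RNA-rich wells (blue), with all wells (filled) and without the highest well (open); Cdc25b had a mean under 1 molecule in both classes and has no point. All low-RNA values lie between 0.2 and 1.3, while RNA-rich values reach 4.25 for Ube2c and 11 genes have both points right of the dotted limit of 2.

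In RNA-rich wells the levels of the members were related to each other, weakly for most pairs and closely for a few. Spearman's rho between their levels had a median of 0.169 over 666 pairs of members, and 85.1% of pairs were above 0. Over all gene pairs of the same class the median was 0.019, with 55.1% above 0. In low-RNA wells the median was 0.0282 over 528 pairs, against 0.0106 over all gene pairs. With both classes thinned to 20000 gene molecules it was 0.0174 in low-RNA wells and 0.095 in RNA-rich wells, against 0.00794 and 0.00602 over all gene pairs. These are descriptions over wells of 1 culture that share their depth and chip, with no test.

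Of the 666 pairs, 18 (2.7%) had a rho of at least 0.5 in RNA-rich wells, against 0.0447% of all gene pairs. None of 528 pairs did in low-RNA wells, against 0.061% of all gene pairs. At so small a share few or no such pairs would be found among 528, so this count says little about the members. The closest pairs in RNA-rich wells were Top2a with Cks2 at 0.642, Cdk1 with Ube2c at 0.618, Ube2c with Nusap1 at 0.606 and Plk1 with Cks2 at 0.606. Hmmr, Ube2c and Top2a each took part in 6 of the 18 pairs. Partners of Hmmr were Ube2c, Plk1, Bub3, Cks2, Ccnb1 and Top2a, and those of Ube2c were Cdk1, Nusap1, Hmmr, Cenpf, Top2a and Plk1. Top2a was paired with Cks2, Mki67, Cenpf, Hmmr, Ube2c and Anln. In low-RNA wells the highest value was 0.458, for Plk1 with Tpx2.

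**Figure D5:**
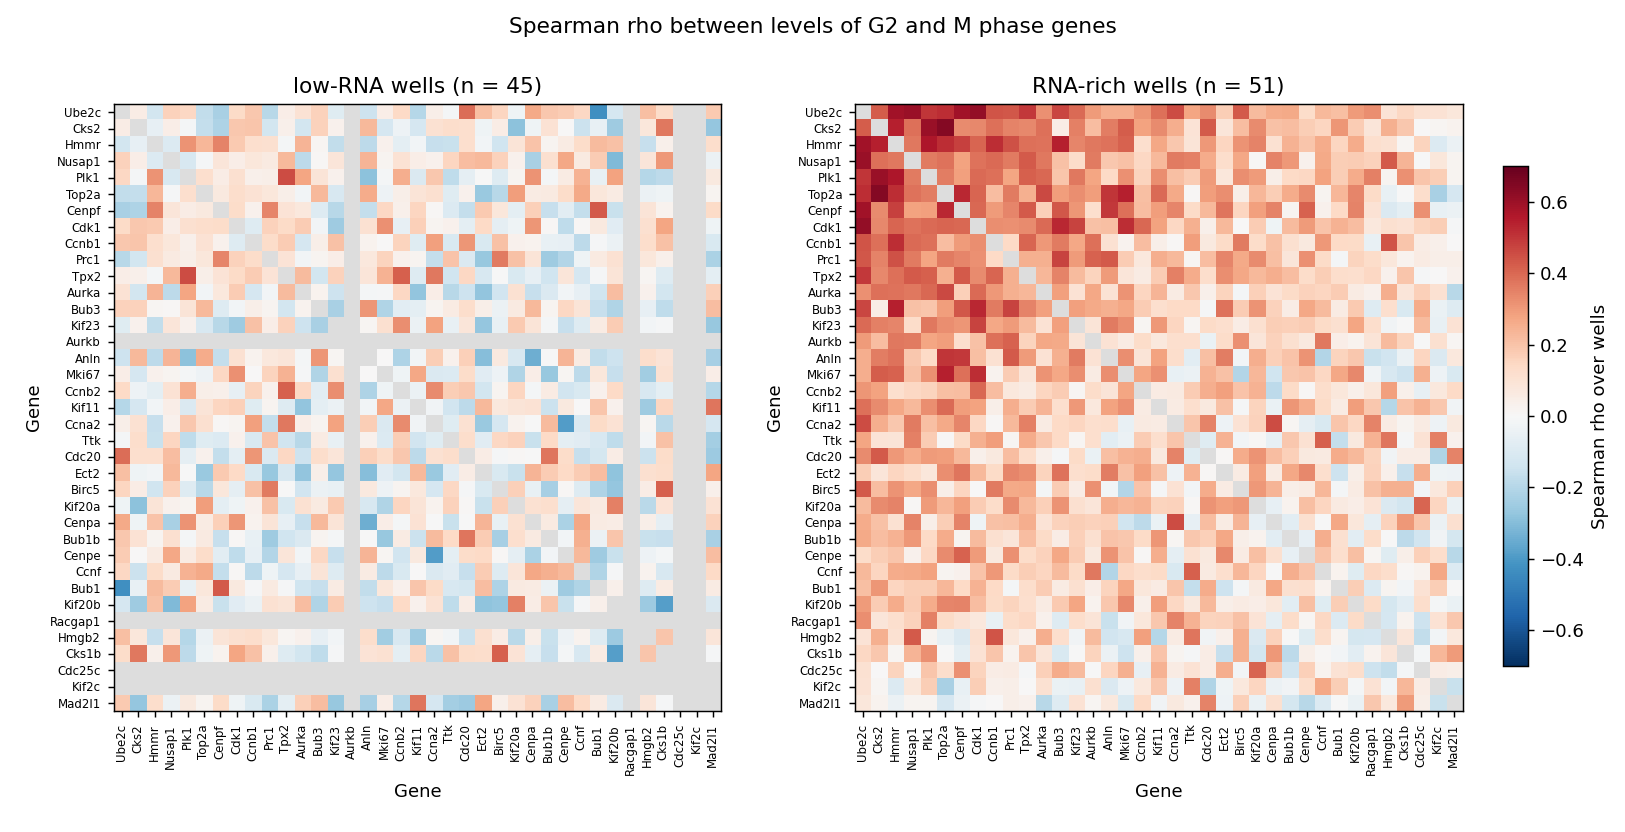
Spearman's rho between the levels of each pair of G2 and M phase genes over 45 low-RNA wells (left) and 51 RNA-rich wells (right), from blue (negative) to red (positive), in the order of each gene's rho with the sum of the others in RNA-rich wells; grey rows are genes with a mean under 1 molecule. The upper left block of the right panel, from Ube2c to Cdk1, is the most uniformly red, and no such block is seen in the left panel.

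Each member was also set against the summed level of the other members in RNA-rich wells. Ube2c and Cks2 followed it most closely, with a rho of 0.72 each, followed by Hmmr at 0.674, Nusap1 at 0.642, Plk1 at 0.613, Top2a at 0.578, Cenpf at 0.562 and Cdk1 at 0.544. Ccnb1, Prc1 and Tpx2 had values just above 0.5, which made 11 of the 37 members. Among 3118 other genes averaging at least 5 molecules, the gene of rank 4 had a rho of 0.518 with the members' sum. The gene of rank 5 had one of 0.481. Cks2 and Plk1 thus moved with the sum although their own noise ratios were under 2. Mad2l1 at -0.01, Kif2c at 0.05, Cdc25c at 0.11, Cks1b at 0.113 and Hmgb2 at 0.164 hardly followed it. In low-RNA wells the highest such value was 0.345, for Cdk1, and the median over members was 0.0829. Over 499 other genes averaging at least 5 molecules there, the median rho with the summed level of the members was 0.0991. The members thus followed their sum no more closely than other genes did in that class.

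Hmgb2 was above technical noise but followed the other members less than most did. It had its closest pairs with Ccnb1 at 0.441 and Nusap1 at 0.428, and Ccnb1 and Hmgb2 are also the 2 members with under 50% uniquely matched molecules. Cdc20, also above technical noise, had a rho of 0.298 with the sum of the others, and its closest pair was Cks2 at 0.428. Cks1b and Cks2, close in protein function, differed here too: the rho with the sum of the other members was 0.113 for Cks1b and 0.718 for Cks2.

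Outside the 38 genes, the gene most like their sum over RNA-rich wells, among 3118 with a mean of at least 5 molecules, was Kpna2, a nuclear import adaptor, with a rho of 0.679. Its level averaged 2.56 ± 1.31 in low-RNA wells and 4.42 ± 2.58 in RNA-rich wells, its noise ratio in RNA-rich wells was 4.69, and 49.5% of its molecules were uniquely matched. Next came Cdca8 (a passenger complex subunit) at 0.575, Cdca2 (which targets a phosphatase to chromatin) at 0.543, Myst4 (a histone acetyltransferase) at 0.518 and Pou2f1 (a transcription factor) at 0.481. The median over these 3118 genes was 0.0333.

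A list of 74 other G2 and M phase genes, fixed by function, was measured in the same way. All 74 had a molecule, and 63 were compared between the classes, with a median ratio of 0.87. Of these, 3 were at least 2 times lower in low-RNA wells (Anapc11, Kif22 and Ube2s), where 9.41% of all genes were. Casc5 and Hjurp, 2 of the 63, were at least 2 times higher, where 4.4% of all genes were. In RNA-rich wells 1 of 72 was above technical noise, against 7.0% of all genes. This was Tubb4b, a beta-tubulin that averaged 4.15 ± 1.84 in low-RNA wells and 6.71 ± 2.58 in RNA-rich wells. Spc24, a kinetochore subunit, averaged 1.61 ± 0.95 and 2.89 ± 1.46. The summed level of the list had a rho of 0.749 with that of the 38 members in RNA-rich wells and -0.0271 in low-RNA wells. By subgroup this value in RNA-rich wells was 0.751 for kinetochore and passenger complex genes, 0.655 for spindle and cytokinesis genes, 0.401 for condensins, 0.364 for genes of entry to mitosis and 0.246 for the anaphase-promoting complex.

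A list of 35 G1 and S phase genes was weakly and inversely related to the members. Its summed level had a rho of -0.199 with that of the 38 members over RNA-rich wells, or -0.33 without D02 and E02, and of -0.00369 over low-RNA wells. H07, with the highest G2 and M phase sum, had a G1 and S phase sum of 29.7, and A05 one of 37.3, against a class median of 51.9. Of 34 genes compared, 3 were at least 2 times lower in low-RNA wells (Ccnd3, Ccne1 and Chaf1b), against 9.41% of all genes. None was at least 2 times higher, against 4.4% of all genes. The cyclins Ccnd1 and Ccnd2 and the histone mRNA binding protein Slbp were above technical noise in RNA-rich wells. That is 3 of 34, against 7.0% of all genes. Hells and Dut had the highest mean counts of the list, with 7.24 ± 2 and 6.2 ± 2.19 for Hells and 3.68 ± 1.18 and 5.39 ± 1.93 for Dut in low-RNA and RNA-rich wells.

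How many wells showed a molecule followed depth. In RNA-rich wells 19 of the 38 genes were found in every well, and in low-RNA wells 4 were: Ube2c, Cks1b, Cks2 and Hmgb2. A well held molecules of 20 to 35 of the 38 genes in the low-RNA class, with a median of 30, and of 30 to 38 in the RNA-rich class, with a median of 35. After thinning to 15000 gene molecules, which left out 6 low-RNA wells and no RNA-rich well, 22 genes were in a lower and 13 in a higher share of low-RNA wells, where before thinning 34 were lower. Aurka, for example, was then found in 69.2% of low-RNA wells and 86.3% of RNA-rich wells, and Cenpe in 84.6% and 58.8%. The same counts over all genes are not given here, so these numbers do not set the members apart from other genes.

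Counts of 9 members may hold reads of a gene that overlaps on the other strand (Ccna2, Cdc20, Cdc25b, Cdc25c, Plk1, Kif20a, Ube2c, Nusap1 and Prc1), since whether counting used strand is not given in the sources used here. Another annotated gene overlaps an exon of Ccnf and of Top2a on the same strand. Uniquely matched reads gave at least 90% of molecules for 33 members, and for Mki67, Cks2 and Racgap1 69.4%, 84.95% and 85.3%.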

How the data were processed

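Single R1 cells were profiled in 96 wells of 1 chip. Each of the 96 libraries was sequenced before and after 9 extra PCR cycles, per the series' design text. The deposited table holds molecule counts, per the file headers, with 1 column per well, and both library forms share its 96 barcodes. Alignment used Bowtie (version not given in the sources used here) and the mouse build mm10 (GRCm38), per the submitters' processing notes. Reads with several matches went to their most 5′ exonic match, per the file headers, and are in the counts used.

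Levels, classes of wells (at most 40000 or at least 50000 gene molecules) and ratios of mean levels were computed in Python 3.11.15 with numpy 2.4.6, pandas 2.3.3 and scipy 1.17.1, and figures with matplotlib 3.10.9. Spike-ins and repeats were left out of gene totals. All 96 wells were kept and no doublet caller was run. Ratios needed a mean level of at least 0.2. Spike-ins averaging 0.1 molecules or more gave the technical noise curve, a/mean + b for the squared CV by gamma likelihood, with a of 3.13 in low-RNA wells and 3.23 in RNA-rich wells. Spearman's rank correlation was taken over genes with a mean of at least 1. Thinning drew gene molecules without replacement with 1 fixed seed, and spike-ins were not thinned.

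Full values are given for the 10 members with the highest mean level in RNA-rich wells, those above technical noise and those past a ratio of 2, then for the 5 genes most like the members' sum and the leading genes of the other lists. Ttk, Ccnb2 and Aurkb were named after their values were seen. The members, lists and rules were chosen with earlier results of these data known. As 1 culture is 1 sample, no test was made. The depth of each well is its gene total, and Poisson and binomial intervals cover counting error only. Alternatives changed the total used as the scale, the wells kept, the filter, the depth and the multiply matched members.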

Additional observations from a re-analysis of the deposited data

How the results depend on the processing

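Results were computed again under 74 combinations of result and setting, of which 58 kept the same reading, 16 moved and 0 turned round. A median or a ratio of sums kept its reading if it moved by less than its spread, an SD over members, pairs or wells. This limit is wide: it was 0.158 for the median rho in low-RNA wells and 0.163 in RNA-rich wells. Leaving out D02, E02, H08, A05 or H07, leaving out H12 alone, thinning to 20000 gene molecules and the lower depths for the summed count were chosen after the data were seen, A05 and H07 for their high sums. With mitochondrial genes and Rn45s outside the total, 1 member (Ttk) was at least 2 times higher in low-RNA wells, against 10.1% of genes, the median ratio was 1.06 and the ratio of sums 1.07. Per spike-in total, 33 members were at least 2 times lower, against 90.8% of genes, with a median of 0.273 and a ratio of sums of 0.264. The median of all genes was 0.769 in the values as reported (-0.38 on the log2 scale), 1.03 without those genes and 0.25 per spike-in, and the members' median was 1.03, 1.03 and 1.09 times that of all genes. The number at least 2 times lower was 1 (Ccnb2) without C03, H03 and H12, without H12, without D02 and E02, without these and H08, and without D02, E02, A05 and H07, against 9.49% to 10.5% of genes. It was 2 (Cdc25b and Aurkb) of 38 with no filter on low levels, against 26.6% of genes, and 1 (Cks1b) after thinning to 15000, against 13.2%. The number above technical noise in RNA-rich wells was 0 after thinning to the lowest total of the class, against 2.28% of genes. It was also 0 at 20000 gene molecules, against 1.5%. Spike-ins were not thinned in these settings, which by itself lowers the noise ratio of thinned genes. Without D02, E02, A05 and H07 the number was 7, against 5.51%. The median rho in RNA-rich wells lay between 0.095 at 20000 gene molecules and 0.282 per spike-in total, and in low-RNA wells between 0.00165 without H12 and 0.137 per spike-in total. The cause of these shifts was not tested, other than the fewer molecules that thinning leaves. No paired analysis was possible because the table holds 1 column per well for both library forms and no test was made between them. Depth limits the low-RNA wells, where 33 of 38 members averaged at least 1 molecule, and most values there rest on a few molecules per well.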
